A study of Mus musculus with 16 samples.

Results

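The matrix metalloproteinases (Mmp), the disintegrin metalloproteinases (Adam), their secreted thrombospondin-repeat relatives (Adamts), the ADAMTS-like proteins (Adamtsl) and the tissue inhibitors of metalloproteinases (Timp) were examined in whole epididymal white fat (eWAT) of diabetic mice. The members were every gene whose symbol is one of these family names followed by a number, which gave 84 of the 55573 genes in the table: 23 Mmp, 33 Adam, 19 Adamts, 5 Adamtsl and 4 Timp genes. Of these, 83 are annotated as protein coding, 6 had no count in any library, and 60 passed the filter on low counts and were tested. Males in 4 groups of 4 were compared: mice given AAV8-LRG1-FL and mice given AAV8-eGFP, each sampled at week 7 and at week 10 of age. All mice, controls included, were C57BLKS/J-db/db, which lack a working leptin receptor and become obese and diabetic, and all received their virus by retro-orbital injection at 4 weeks of age. The LRG1 vector encodes a FLAG-tagged form of LRG1 (leucine-rich alpha-2-glycoprotein 1, a secreted glycoprotein) and the control vector encodes enhanced green fluorescent protein. The vector backbone carries the CB7 promoter, which is not restricted to a cell type. No lean or uninjected group was analysed here. Each cage of 4 mice had been given a single virus and the cage of each mouse is not stated in the sources used here, so an effect of the cage and an effect of LRG1 cannot be told apart.

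Metalloproteinases cut proteins with the help of a zinc ion held in the active site. Most MMPs are secreted as inactive precursors and remodel collagen, elastin and other matrix, while ADAMs sit in the cell membrane and release the outer parts of other membrane proteins, such as tumour necrosis factor. ADAMTS enzymes are secreted and cut proteoglycans or trim procollagens. The ADAMTS-like proteins lack the protease domain and bind the matrix. The TIMPs block the active site, so the balance of enzyme and inhibitor sets how much matrix is degraded. In obese fat these genes are expressed by very different cells: macrophages that gather around dying adipocytes express enzymes such as MMP12, whereas fibroblasts, vessels and adipocytes express many of the ADAMTS enzymes and TIMPs.

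The 16 libraries held 45376227 to 67539937 counts. Levels are given as CPM, which are counts corrected for sequencing depth and for the TMM factor of the library, and changes as log2 fold changes of LRG1 over eGFP mice, each with a standard error (SE). Adjusted p-values are from the edgeR quasi-likelihood test with Benjamini-Hochberg adjustment over all 20822 genes tested, and a gene was called at an adjusted p below 0.01. Adipocyte markers summed to 3332 to 10417 CPM, while markers of the epididymal epithelium summed to at most 1.20 CPM, so the libraries carried little of the neighbouring tissue. Replicates 1 and 3 of the eGFP group at week 10 stood apart from the other 14 libraries. The members took 0.787% and 0.696% of all counts in these 2 libraries, against 0.286% to 0.384% in the rest. In the eGFP group of week 10, from replicate 1 to 4, markers of lipid-associated macrophages (Trem2, Gpnmb, Cd9, Itgax, Spp1 and Lipa) summed to 6788, 1108, 7243 and 1501 CPM, those of mast cells to 357, 34.5, 398 and 87.5 CPM, and those of adipocytes to 3332, 7068, 3819 and 7803 CPM. Calls and values of single members at week 10 are therefore also given without both, where this changed the call or the size. In whole tissue, fewer cells of a type and less RNA per cell cannot be told apart.

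Per length, in reads per kilobase of exon, scaled by library size (RPKM), the members spanned a wide range of levels. Mmp12, macrophage metalloelastase, had the highest mean over the 16 libraries at 126 RPKM (19.4 to 683), and its range was also the widest. Timp2 followed at 85.3 RPKM, Adam9 at 48.9, Adamts5 at 42.8, Timp4 at 39.8 and Adam8 at 38.4. In all, 14 members had a mean of at least 10 RPKM and 36 of at least 1 RPKM. Of all member counts, Mmp12 took 4.29% to 6.13% in LRG1 libraries at week 7, against 17.8% to 27.9% in eGFP libraries. At week 10 it took 4.33% to 8.15% in LRG1 libraries, against 56.6%, 10.3%, 60.1% and 17.5% in eGFP libraries. Without Mmp12 the members took 0.255% to 0.342% of all counts in every library, so the high member share of the 2 eGFP libraries was mostly Mmp12.

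At week 7, LRG1 mice had lower transcript levels of the leukocyte enzymes Adam8 and Mmp25, of Adam17 and of Timp1, and higher levels of Adamts5, of other ADAMTS and ADAMTS-like genes, of Mmp11 and Mmp15 and of Timp3. Of the 60 tested members, 4 were called lower (Adam8, Adam17, Mmp25 and Timp1) and 8 higher (Adamts5, Adamts18, Adamts20, Adamtsl2, Adamtsl3, Mmp11, Mmp15 and Timp3). These are 6.67% and 13.3% of the members tested, beside 10.7% of all genes called lower and 7.37% called higher in the same comparison. At week 10, 9 members were called lower (Mmp8, Mmp11, Mmp12, Mmp13, Mmp25, Adam8, Adamtsl5, Timp1 and Timp2), which is 15% of those tested, and 3 higher (Adamts5, Adamts18 and Adamtsl2), which is 5%. With library totals alone as the scale, the median of all genes moved to -0.15 at week 7, and 8 members were called lower and 3 higher there, beside 3636 genes lower and 341 higher in place of 2221 and 1534. The background at week 10 was 5.24% of all genes called lower and 3.66% called higher. The median log2 fold change of the members was 0.18 at week 7 and 0.01 at week 10, with medians of 0.01 and -0.00 over all genes tested.

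The counts at both weeks depended on which libraries were fitted. The fit of 16 libraries shares 1 estimate of spread among the groups. When only the 8 libraries of week 7 were fitted, 9 of 59 members tested were called lower (Mmp8, Mmp12, Mmp13, Mmp19, Mmp25, Adam8, Adam12, Adam17 and Timp1) and 15 higher, beside 16% and 13.1% of all genes. When only the 8 libraries of week 10 were fitted, edgeR called 0 members in either direction, beside 0.0523% of all genes lower and 0.0105% higher, with 16 lower and 9 higher at an unadjusted p below 0.05, while DESeq2 on all 16 libraries called 13 lower and 4 higher, beside 10.8% and 8.63% of all genes. Without eGFP replicates 1 and 3 edgeR again called 0 members at week 10, beside 0.338% of all genes lower and 0.398% higher, with 10 lower and 6 higher of 62 at an unadjusted p below 0.05; DESeq2 was not run without them.

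**Figure D1:**
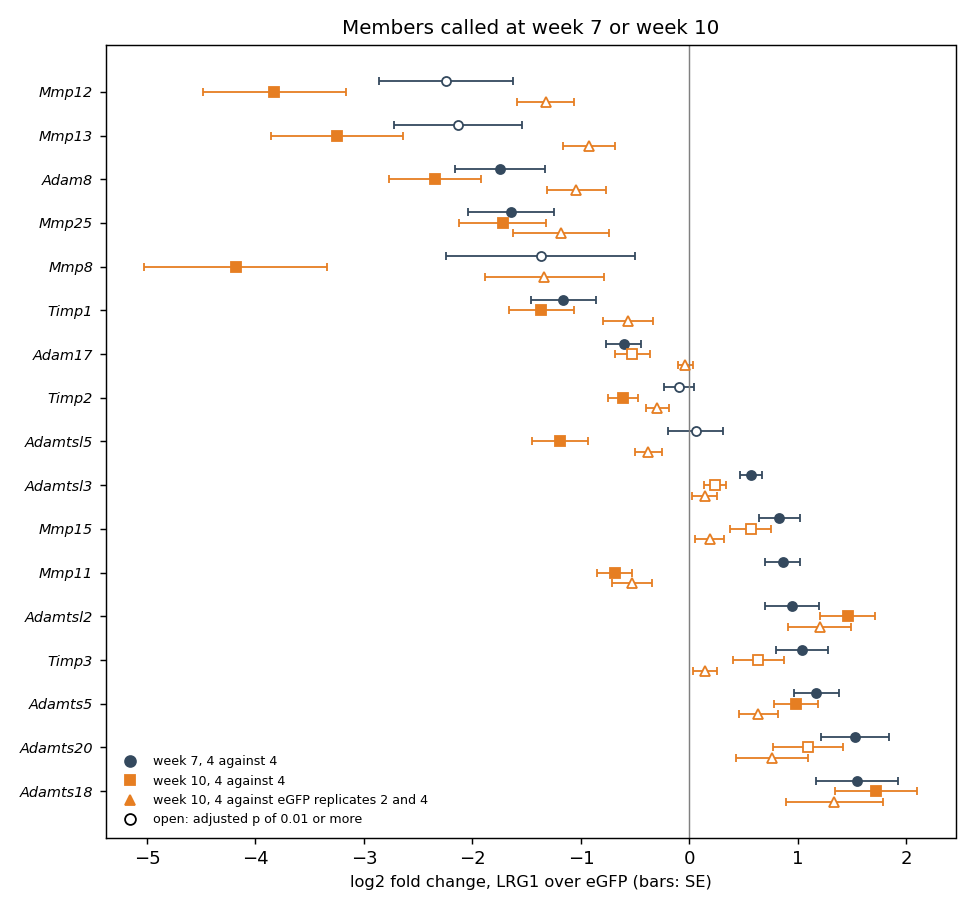
Log2 fold change of LRG1 over eGFP (horizontal axis, bars are SE) of the 17 members called at week 7 or week 10, from edgeR fits: circles show week 7, squares show week 10 with all 8 mice and triangles show week 10 with eGFP replicates 2 and 4 only; open symbols did not reach an adjusted p of 0.01. Mmp12, Mmp13, Mmp8, Adam8, Mmp25 and Timp1 lie left of 0 in all 3 fits, Adamts5, Adamts18, Adamts20 and Adamtsl2 lie right of 0, and Mmp11 lies right of 0 at week 7 and left of it at week 10.

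Among the enzymes known from myeloid cells, Mmp12 showed the largest counts and one of the largest differences. MMP12 is secreted mainly by macrophages and degrades elastin. In LRG1 mice of week 7, Mmp12 was at 142, 183, 147 and 182 CPM, against 935, 935, 710 and 514 CPM in eGFP mice, so the groups did not overlap. Its log2 fold change was -2.24 (SE 0.62, adjusted p = 0.012 in the edgeR fit of 16 libraries), which missed the threshold, and -2.26 (adjusted p = 1.2e-06) in the edgeR fit of the 8 libraries of that week. DESeq2 on the 16 libraries called Mmp12 lower at week 7 (-2.24, adjusted p = 0.00022). In LRG1 mice of week 10, Mmp12 was at 149, 261, 166 and 140 CPM, against 4315, 314, 4942 and 583 CPM in eGFP mice. The LRG1 mice were all below the eGFP mice, but the lowest eGFP library lay close to the highest LRG1 library and replicates 1 and 3 exceeded the others by far. The log2 fold change at week 10 was -3.83 (SE 0.66, edgeR adjusted p = 0.0020), and -1.33 (adjusted p = 0.013) without these 2 libraries.

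Mmp13, an interstitial collagenase, was far scarcer but had the same pattern. Its LRG1 libraries of week 7 held 1.10, 0.776, 0.812 and 0.896 CPM, against 4.54, 4.60, 3.57 and 3.03 CPM in eGFP libraries. At week 10 it was at 0.716, 0.891, 0.915 and 0.649 CPM in LRG1 mice, against 13.7, 1.23, 13.6 and 1.79 CPM in eGFP mice. The groups were apart at both weeks, and replicates 1 and 3 were again the high eGFP libraries. The log2 fold change was -2.13 at week 7 (SE 0.59, edgeR adjusted p = 0.012; 3.4e-06 with only the 8 libraries of that week) and -3.25 at week 10 (SE 0.61, adjusted p = 0.0029). Without the 2 libraries it was -0.92 at week 10 (adjusted p = 0.039). DESeq2 on the 16 libraries called Mmp13 lower at week 7 (adjusted p = 0.00245).

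Adam8, a sheddase of leukocytes that cuts adhesion molecules, was called lower at both weeks. It was at 74.6, 82.1, 55.6 and 71.7 CPM in LRG1 mice of week 7, against 226, 329, 229 and 169 CPM in eGFP mice, a log2 fold change of -1.75 (SE 0.42, edgeR adjusted p = 0.0052). Its level at week 10 was 60.3, 96.7, 49.0 and 59.1 CPM in LRG1 mice, against 528, 95.7, 547 and 177 CPM in eGFP mice, where eGFP replicate 2 lay within the LRG1 range. The log2 fold change was -2.34 at week 10 (SE 0.43, adjusted p = 0.0026) and -1.04 without eGFP replicates 1 and 3 (adjusted p = 0.041). Mmp25, a membrane-anchored enzyme known from neutrophils, was rare but lower at both weeks. Its levels were 0.195 to 0.439 CPM in LRG1 mice and 0.714 to 1.38 CPM in eGFP mice at week 7, and 0.126 to 0.490 CPM in LRG1 mice and 0.587 to 1.54 CPM in eGFP mice at week 10, without overlap at either week. The log2 fold changes were -1.64 (SE 0.40, adjusted p = 0.0053) and -1.72 (SE 0.40, adjusted p = 0.0077). At week 10 Mmp25 was at -1.18 without the 2 libraries (adjusted p = 0.15).

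**Figure D2:**
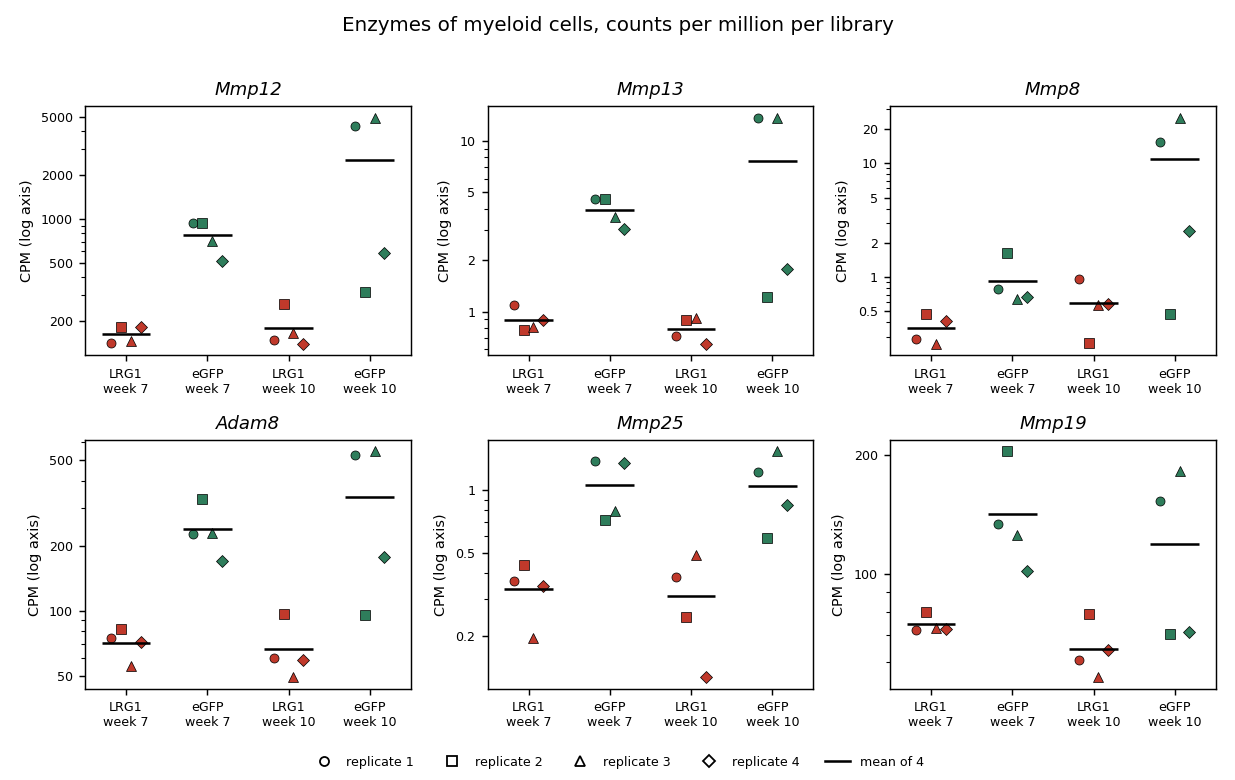
CPM per library on log axes for Mmp12, Mmp13, Mmp8, Adam8, Mmp25 and Mmp19 in the LRG1 and eGFP groups of week 7 and week 10; each symbol is 1 mouse, its shape gives the replicate number and the black line is the mean of 4. LRG1 libraries lie below all eGFP libraries at week 7 in each panel, and at week 10 eGFP replicates 1 and 3 lie above replicates 2 and 4.

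Mmp8, the collagenase stored in neutrophil granules, was scarce at week 7, with 0.260 to 0.473 CPM in LRG1 mice and 0.635 to 1.61 CPM in eGFP mice. By week 10 it was at 0.961, 0.265, 0.572 and 0.577 CPM in LRG1 mice, against 15.3, 0.470, 25.2 and 2.55 CPM in eGFP mice. Its call at week 10 (log2 fold change -4.18, SE 0.84, edgeR adjusted p = 0.0038) rested on eGFP replicates 1 and 3, since without them it was at -1.34 (adjusted p = 0.19). Mmp19, which cuts basement membrane proteins, was at 72.4 to 80.4 CPM in LRG1 mice and 102 to 204 CPM in eGFP mice at week 7, apart but not called in the 16-library fit (log2 fold change -0.92, SE 0.27, adjusted p = 0.017). Exons of Mmp19 share 789 of 3533 bases with the opposite-strand gene Tmem198b, which was at -0.21 (SE 0.14), and reads of the shared bases cannot be told apart because the strand setting of the counting is not given. Adam19, another membrane sheddase, was lower by less, at 18.3 to 23.6 CPM in LRG1 mice and 24.2 to 27.8 CPM in eGFP mice (log2 fold change -0.29, SE 0.09, adjusted p = 0.017).

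The list of 8 myeloid enzymes (Mmp8, Mmp9, Mmp12, Mmp13, Mmp19, Mmp25, Adam8 and Adam19) had a median log2 fold change of -1.51 at week 7 and -2.03 at week 10, beside medians of 0.01 and -0.00 over all genes. At week 7, 2 of the 8 were called lower, and at week 10, 5 of the 8. The exception in direction was Mmp9 at week 7. These counts stand beside 10.7% of all genes called lower at week 7 and 5.24% at week 10, and without eGFP replicates 1 and 3 edgeR called 0 of the 8 at week 10 (median log2 fold change -0.98). Markers of macrophages and T cells were called lower as well. At week 7, 9 of 10 macrophage markers were called lower, and their summed level was 914 to 1071 CPM in LRG1 mice and 2210 to 2848 CPM in eGFP mice. At week 10 all 10 were called lower, with 829 to 1141 CPM in LRG1 mice and 1320 to 2503 CPM in eGFP mice, and no marker was at 0 in either group (5 of 10 were called without eGFP replicates 1 and 3). T cell markers were lower still at week 7, with 5 of 5 called, a median log2 fold change of -4.53 and sums of 1.4 to 5.27 CPM in LRG1 mice and 24 to 44.7 CPM in eGFP mice; at week 10, 3 of 5 were called, and 0 without the pair. Mast cell markers were called in 0 of 4 at week 7 and 4 of 4 at week 10 (median -3.37), where 3 of 4 were called without the pair. Neutrophil markers summed to 28.0 to 33.9 CPM in LRG1 mice and 14.4 to 31.8 CPM in eGFP mice at week 7. Most of this sum was S100a8 (log2 fold change 0.85, adjusted p = 0.20), while Ltf, Ngp, Camp and S100a9 were between -2.26 and -1.08, and 0 of 7 were called (median -1.08). The other listed markers were not lower in this way and overlapped between the groups. Cxcr2 had 32, 56, 29 and 24 raw counts in LRG1 mice, against 10, 46, 32 and 35 in eGFP mice. Retnlg had 44, 128, 12 and 35 raw counts in LRG1 mice, against 36, 101, 11 and 38 in eGFP mice. At week 10, 4 of 7 were called lower (median -3.66), and 0 without the pair. The neutrophil sum of week 10 was 32.5 to 83.6 CPM in LRG1 mice, against 193, 20, 379 and 110 CPM in eGFP mice, where the highest libraries were those with the most Mmp8. The part of these cells in the results was not tested.

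To set the enzymes against the macrophage transcripts, the fit was repeated with each library scaled by the geometric mean of the 10 macrophage markers. On this scale most genes were higher in LRG1 mice, with a median log2 fold change over all genes of 1.37 at week 7 and 0.99 at week 10. At week 7, 48 of 60 members were called higher, beside 76.3% of all genes, and 0 lower by edgeR, beside 0.864% of all genes, with 0 lower at an unadjusted p below 0.05 as well. Of the myeloid enzymes lower than eGFP on the TMM scale at week 7, Mmp8 was at 0.02 (adjusted p = 0.98), Mmp25 at -0.31 (adjusted p = 0.43), Adam8 at -0.37 (adjusted p = 0.22), Mmp13 at -0.75 (adjusted p = 0.12) and Mmp12 at -0.87 (adjusted p = 0.083), while Mmp19 was at 0.47 (adjusted p = 0.025) and Adam19 at 1.08 (adjusted p = 5.3e-05). At week 10, 34 of 60 members were called higher, beside 62.9% of all genes, and 4 lower, beside 0.778% of all genes. The 4 were Mmp8 at -2.85 (adjusted p = 8.4e-04), Mmp12 at -2.55 (adjusted p = 2.1e-04), Mmp13 at -1.97 (adjusted p = 9.1e-04) and Adam8 at -1.15 (adjusted p = 0.0014), so these fell by more than the 10 markers did. With the 6 lipid-associated macrophage markers as the scale, edgeR called 0 members lower at week 10, with 2 lower at an unadjusted p below 0.05, Mmp12 at -1.07 (adjusted p = 0.038) and Mmp8 at -1.21 (adjusted p = 0.041). On that scale Mmp13 was at -0.51 (adjusted p = 0.34) and Adam8 at 0.01 (adjusted p = 0.99). Without eGFP replicates 1 and 3 of week 10, 0 were called lower relative to the 10 markers at week 10, but 2 were at week 7. DESeq2 was not run on this scale.

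Several of these enzymes lie together in the genome. Of the 23 Mmp genes, 10 form a cluster on chromosome 9 from 7272514 to 7699585 (GRCm38), in the order Mmp13, Mmp12, Mmp1b, Mmp3, Mmp1a, Mmp10, Mmp8, Mmp27, Mmp20 and Mmp7. Of these 10 genes, 5 were tested (Mmp13, Mmp12, Mmp3, Mmp8 and Mmp27), and the other 5 had 1 to 80 counts over all 16 libraries. Mmp3 (stromelysin 1, made mainly by fibroblasts) was at 3.53 to 6.75 CPM in LRG1 mice and 5.05 to 8.07 CPM in eGFP mice at week 7, which overlapped. At week 10 Mmp3 was at 3.72, 7.35, 4.34 and 6 CPM in LRG1 mice, against 30.4, 3.96, 16.3 and 9.88 CPM in eGFP mice (log2 fold change -1.50, SE 0.43, edgeR adjusted p = 0.021; -0.37 and adjusted p = 0.61 without eGFP replicates 1 and 3). Mmp12 shares 157 of 7237 exon bases with Mmp1b on the opposite strand, which had 7 counts in all. The sequences of the 120 bases before the transcription start are shown for these 4 cluster genes, because neighbours in 1 cluster differ there, and for Adamtsl2, which was higher in LRG1 mice. They are from RefSeq promoters on GRCm38.p6, 5′ to 3′ on the strand of the gene, with 2 motifs in capitals where present: TGANTCA, the core bound by AP-1 (Fos and Jun proteins), and TATAAA, the TATA box.
Mmp13: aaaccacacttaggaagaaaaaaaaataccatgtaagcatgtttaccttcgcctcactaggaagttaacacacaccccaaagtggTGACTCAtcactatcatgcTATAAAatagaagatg
Mmp3: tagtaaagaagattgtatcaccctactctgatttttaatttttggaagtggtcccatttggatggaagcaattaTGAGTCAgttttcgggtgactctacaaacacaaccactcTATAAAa
Mmp12: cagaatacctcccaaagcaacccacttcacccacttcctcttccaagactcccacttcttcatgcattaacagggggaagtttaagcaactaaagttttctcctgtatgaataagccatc
Mmp8: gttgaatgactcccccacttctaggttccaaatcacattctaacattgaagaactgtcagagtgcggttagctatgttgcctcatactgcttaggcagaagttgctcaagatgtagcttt
Adamtsl2: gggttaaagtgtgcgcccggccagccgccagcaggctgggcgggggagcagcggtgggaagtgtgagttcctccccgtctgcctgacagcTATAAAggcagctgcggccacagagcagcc
All 5 lie on the plus strand: Mmp13 at chr9:7272394-7272513, Mmp3 at chr9:7445702-7445821, Mmp12 at chr9:7344277-7344396, Mmp8 at chr9:7558309-7558428 and Adamtsl2 at chr2:27079259-27079378. Mmp13 and Mmp3 carry both motifs, Mmp12 and Mmp8 carry neither in these 120 bases, and Adamtsl2 carries only the TATA box. A RefSeq promoter was matched for 53 of the 84 members. In windows of 250 bases before to 50 bases after the start, searched on both strands, TGANTCA stood in 12 of the 53 (22.6%) but in only 3 of the 38 tested members with a promoter (7.89%), beside 2145 of 27025 genes (7.94%). TATAAA stood in 14 of the 53 (26.4%) and in 5 of those 38 (13.2%), beside 3827 of 27025 genes (14.2%). The 2 motifs do not overlap, and a match is only a description of the letters.

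Of the 7 proteoglycanases, 2 were called higher at week 7 (Adamts5 and Adamts20) and 1 at week 10 (Adamts5), and none lower. Of all genes, 7.37% were called higher at week 7 and 3.66% at week 10, and 10.7% and 5.24% lower. Adamts4 and Adamts15 had log2 fold changes below 0, at -0.49 and -0.17 at week 7, and did not pass. Adamts5, an aggrecanase that cuts proteoglycans such as versican, was the most abundant Adamts transcript. It was at 686, 480, 680 and 605 CPM in LRG1 mice of week 7, against 230, 220, 350 and 289 CPM in eGFP mice (log2 fold change 1.17, SE 0.21, edgeR adjusted p = 6.4e-04). At week 10 it was at 659, 538, 634 and 727 CPM in LRG1 mice, against 254, 432, 220 and 391.7 CPM in eGFP mice (log2 fold change 0.98, SE 0.20, adjusted p = 0.0045). The groups did not overlap at either week. The eGFP replicates 2 and 4 were nearer to the LRG1 mice at week 10, and against these alone the log2 fold change was 0.64 (adjusted p = 0.056). Adamts1, the neighbour of Adamts5 on chromosome 16 and also a proteoglycanase, had a log2 fold change of 0.21 at week 7 (SE 0.13, adjusted p = 0.24) and of 0.39 at week 10 (SE 0.13, adjusted p = 0.039; 0.21 without eGFP replicates 1 and 3), so it was not called. Adamts9, which has a similar role, was at 63.0 to 82.5 CPM in LRG1 mice and 38.6 to 53.0 CPM in eGFP mice at week 7, with a log2 fold change of 0.55 (SE 0.17, adjusted p = 0.019).

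Among rare enzymes of the same family, Adamts20 and Adamts18 also differed. Adamts20, which cuts versican, was at 1.53 to 2.44 CPM in LRG1 mice and 0.380 to 0.932 CPM in eGFP mice at week 7 (log2 fold change 1.52, SE 0.31, edgeR adjusted p = 0.0020), and its call held in all 26 alternatives. At week 10 Adamts20 was at 0.937 to 1.43 CPM in LRG1 mice and 0.208 to 0.742 CPM in eGFP mice, again apart, with a log2 fold change of 1.09 (SE 0.32, adjusted p = 0.024; 0.76 and adjusted p = 0.22 without eGFP replicates 1 and 3). Adamts18, an enzyme with a role in tissue development, was at 0.374 to 0.796 CPM in LRG1 mice and 0.124 to 0.254 CPM in eGFP mice at week 7, and at 0.469 to 0.947 CPM in LRG1 mice and 0.138 to 0.287 CPM in eGFP mice at week 10. Its log2 fold changes were 1.54 (SE 0.38, adjusted p = 0.0059) and 1.72 (SE 0.38, adjusted p = 0.0057), and 1.33 (adjusted p = 0.11) at week 10 without eGFP replicates 1 and 3.

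Of the 5 ADAMTS-like genes, all tested, 2 were called higher at week 7, beside 7.37% of all genes. The median log2 fold change of the 5 was 0.56, beside 0.01 over all genes. Adamtsl2, a matrix protein that binds fibrillin, was at 11.7, 9.18, 10.8 and 12.1 CPM in LRG1 mice of week 7, against 4.67, 3.96, 6.81 and 7.31 CPM in eGFP mice (log2 fold change 0.95, SE 0.25, edgeR adjusted p = 0.0087). Its level at week 10 was 20.2, 9.53, 16.3 and 14.2 CPM in LRG1 mice, against 4.19, 4.87, 4.61 and 8.23 CPM in eGFP mice (log2 fold change 1.46, SE 0.25, adjusted p = 0.0020). The groups were apart at both weeks, and the 2 unusual eGFP libraries resembled replicate 2 for this gene. Against eGFP replicates 2 and 4 alone the log2 fold change was 1.20 (adjusted p = 0.030). Adamtsl3 was at 15.1 to 18.9 CPM in LRG1 mice and 10.7 to 13.1 CPM in eGFP mice at week 7 (log2 fold change 0.57, SE 0.10, adjusted p = 7.3e-04), and at 0.24 (SE 0.10, adjusted p = 0.10; 0.14 without eGFP replicates 1 and 3) at week 10. Adamtsl5 differed at week 10, mainly through eGFP replicates 1 and 3, although replicates 2 and 4 also lay above the LRG1 mice. It was at 5.64, 6.80, 6.68 and 6.60 CPM in LRG1 mice, against 21.1, 7.97, 21.2 and 8.75 CPM in eGFP mice. Its log2 fold change was -1.19 (SE 0.26, adjusted p = 0.0053), -0.38 without them (adjusted p = 0.11), and 0.06 (SE 0.26) at week 7.

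**Figure D3:**
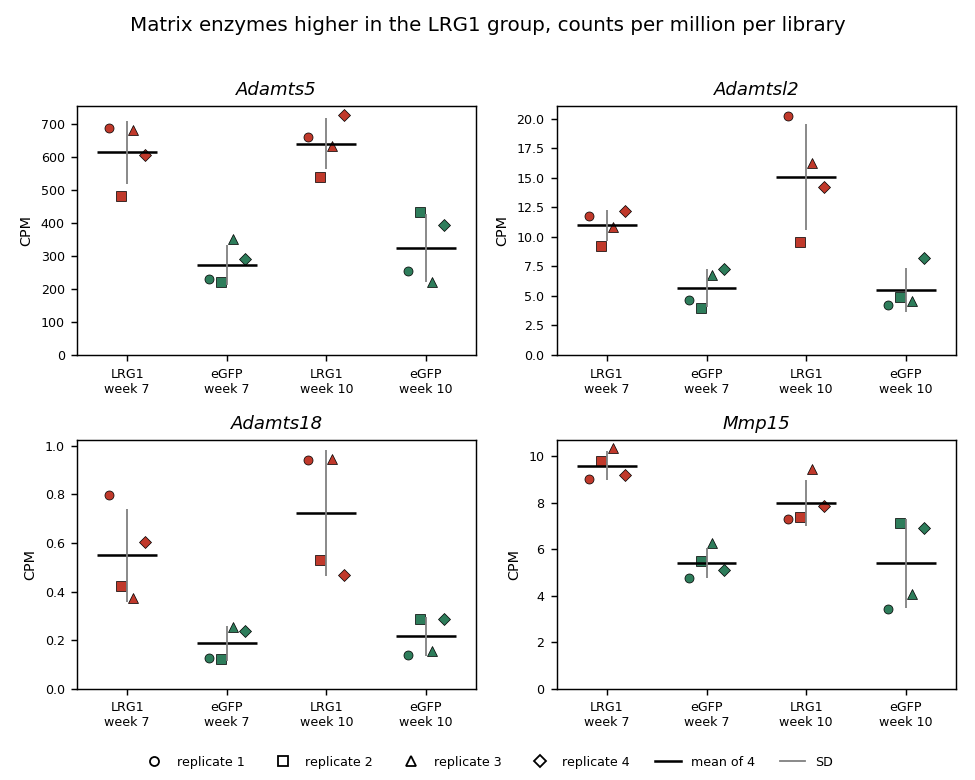
CPM per library, on axes that start at 0, for Adamts5, Adamtsl2, Adamts18 and Mmp15 in the LRG1 and eGFP groups of week 7 and week 10; each symbol is 1 mouse, its shape gives the replicate number, the black line is the mean and the grey bar the SD of 4. All 4 genes are higher in LRG1 mice than in eGFP mice without overlap at both weeks, and for Adamts5 and Mmp15 eGFP replicates 2 and 4 of week 10 come closest to the LRG1 mice.

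The membrane-bound MMPs did not move as 1 group. Mmp15, which activates other MMPs at the cell surface, was at 9.01 to 10.4 CPM in LRG1 mice and 4.76 to 6.27 CPM in eGFP mice at week 7 (log2 fold change 0.83, SE 0.19, edgeR adjusted p = 0.0040). By week 10 it was at 7.29, 7.37, 9.44 and 7.86 CPM in LRG1 mice, against 3.43, 7.15, 4.09 and 6.91 CPM in eGFP mice (log2 fold change 0.56, SE 0.19, adjusted p = 0.044; 0.19 and adjusted p = 0.49 without eGFP replicates 1 and 3). Mmp14, the main activator of pro-MMP2 and the better known collagenase of the cell surface, was at 40.5 to 48.8 CPM in LRG1 mice and 41.0 to 54.1 CPM in eGFP mice at week 7 (log2 fold change -0.07, SE 0.18). Mmp2, gelatinase A, was also alike at week 7, at 95.4 to 111 CPM in LRG1 mice and 80.3 to 95.9 CPM in eGFP mice (log2 fold change 0.18, SE 0.19, adjusted p = 0.50). At week 10 Mmp2 was at 78.2, 94.5, 75.4 and 90.9 CPM in LRG1 mice, against 177, 90.1, 172 and 90.4 CPM in eGFP mice. Only eGFP replicates 1 and 3 stood above the LRG1 range there, and the difference was not called (-0.64, SE 0.19, adjusted p = 0.022; -0.09 without eGFP replicates 1 and 3). Mmp28 (epilysin) was at 23 to 25.5 CPM in LRG1 mice and 14.1 to 18.7 CPM in eGFP mice at week 7, with a log2 fold change of 0.60 (SE 0.20, adjusted p = 0.029). It shares 12% of its exon bases with the opposite-strand gene 1700020L24Rik, whose reads there cannot be told apart.

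The 17 stromal enzymes and inhibitors of the second list had a median log2 fold change of 0.21 at week 7, where 4 were called higher (Adamts5, Adamtsl2, Mmp11 and Timp3), and of -0.04 at week 10, where 2 were called higher (Adamts5 and Adamtsl2) and 2 lower (Mmp11 and Timp2). Over all genes the medians were 0.01 and -0.00. Of all genes, 7.37% were called higher and 10.7% lower at week 7, and 3.66% and 5.24% at week 10. Without eGFP replicates 1 and 3, edgeR called 0 of the 17 at week 10 in either direction (median log2 fold change -0.04). Markers of several stromal cell types and of adipocytes were also higher in LRG1 mice at week 7. The 7 fibroblast and progenitor markers summed to 958 to 1118 CPM in LRG1 mice and 804 to 887 CPM in eGFP mice, with 1 called, the 4 endothelial markers to 329 to 452 CPM in LRG1 mice and 189 to 247 CPM in eGFP mice, with all 4 called, and the 5 adipocyte markers to 8388 to 10417 CPM in LRG1 mice and 5066 to 6089 CPM in eGFP mice, with 2 called. At week 10 the fibroblast sum was 906 to 998 CPM in LRG1 mice and 857 to 1003 CPM in eGFP mice, which overlapped. Adipocyte and smooth muscle sums did not overlap at week 10: those of adipocytes were 9575 to 10245 CPM in LRG1 mice and 3332 to 7803 CPM in eGFP mice, with 1 of 5 called, and those of 4 smooth muscle markers were 240 to 364 CPM in LRG1 mice and 73.2 to 206 CPM in eGFP mice, with 2 called. Endothelial sums were 336 to 555 CPM in LRG1 mice and 172 to 339 CPM in eGFP mice, with 0 called by edgeR. Replicates 1 and 3 held the lowest eGFP sums of adipocyte, smooth muscle and endothelial markers at week 10. Without them the median log2 fold changes of these lists were 0.16, 0.45 and 0.33, in place of 0.58, 0.74 and 0.65. By edgeR 1, 1 and 0 of their genes were then called. No marker of these lists was at 0. Their part in the changes of the ADAMTS genes was not tested.

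Among the sheddases, Adam17, the enzyme that releases tumour necrosis factor, was lower at week 7. It was at 57.7, 65.4, 59.3 and 62.5 CPM in LRG1 mice, against 97.6, 90.5, 89.8 and 95.1 CPM in eGFP mice (log2 fold change -0.61, SE 0.16, edgeR adjusted p = 0.0097). The groups were tight and far apart, and in the fit of the 8 libraries of week 7 the adjusted p was 8.2e-06, but the call was lost in 15 of 26 alternatives, where the adjusted p reached at most 0.029. At week 10 Adam17 was at 56.7, 53.9, 55.2 and 49.9 CPM in LRG1 mice, against 98.8, 55.9, 101 and 54.9 CPM in eGFP mice, where replicates 2 and 4 of the eGFP group fell within the LRG1 range (-0.53, SE 0.16, adjusted p = 0.029; -0.04 without eGFP replicates 1 and 3). Adam10, the other main sheddase, was at 59.1 to 80.4 CPM in LRG1 mice and 72.1 to 81.4 CPM in eGFP mice at week 7 (-0.16, SE 0.12, adjusted p = 0.34). Adam9, the most abundant Adam transcript, was at 193 to 211 CPM in LRG1 mice and 179 to 199 CPM in eGFP mice (0.10, SE 0.06, adjusted p = 0.21). Adam12, which marks activated fibroblasts, was at 39.3 to 51.1 CPM in LRG1 mice and 59.1 to 67.4 CPM in eGFP mice at week 7, apart but not called in the 16-library fit (-0.50, SE 0.26, adjusted p = 0.15).

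The 4 inhibitors split into different patterns. Timp1, the TIMP that is induced in inflammation, was at 21, 20.5, 17.9 and 27.7 CPM in LRG1 mice of week 7, against 44.2, 68.6, 44.4 and 38.1 CPM in eGFP mice (log2 fold change -1.16, SE 0.30, edgeR adjusted p = 0.0077). At week 10 it was at 12.7, 15.1, 11.1 and 9.91 CPM in LRG1 mice, against 49.6, 14.5, 40.0 and 21.7 CPM in eGFP mice (-1.36, SE 0.30, adjusted p = 0.0060; -0.57 and adjusted p = 0.18 without eGFP replicates 1 and 3). Timp3, the TIMP that binds to the matrix and also inhibits ADAM17 and ADAMTS5, was at 288, 294, 283 and 264 CPM in LRG1 mice of week 7, against 122, 142, 148 and 138 CPM in eGFP mice. Its log2 fold change was 1.04 (SE 0.24, adjusted p = 0.0039). At week 10 Timp3 was at 277, 270, 354 and 292 CPM in LRG1 mice, against 112, 293, 116 and 247 CPM in eGFP mice (0.64, SE 0.24, adjusted p = 0.063; 0.14 and adjusted p = 0.53 without eGFP replicates 1 and 3), and eGFP replicates 2 and 4 resembled the LRG1 mice. Timp4, known for its high expression in adipocytes, behaved like Timp3, with 292, 332, 390 and 289 CPM in LRG1 mice of week 7, against 109, 124, 141 and 119 CPM in eGFP mice. The difference was not called in the 16-library fit (1.4, SE 0.45, adjusted p = 0.027) and had an adjusted p of 1.1e-06 in the fit of the 8 libraries of that week. At week 10 Timp4 was at 302, 322, 350 and 352 CPM in LRG1 mice, against 47.0, 283, 41.5 and 257 CPM in eGFP mice (1.08, SE 0.45, adjusted p = 0.095; 0.30 and adjusted p = 0.19 without eGFP replicates 1 and 3). Timp2, which also helps MMP14 to activate MMP2, was at 267 to 314 CPM in LRG1 mice and 289 to 349 CPM in eGFP mice at week 7 (-0.09, SE 0.14). Its level at week 10 was 276, 334, 284 and 259 CPM in LRG1 mice, against 534, 340, 523 and 368 CPM in eGFP mice (-0.61, SE 0.14, adjusted p = 0.0062; -0.30 and adjusted p = 0.14 without eGFP replicates 1 and 3). Timp3 lies within the neuronal synapsin gene Syn3 and Timp4 within Syn2, each on the opposite strand. Timp3 shares 1733 of 8144 exon bases with Syn3, which was at 1.23 (SE 0.26) at week 7, and Timp4 shares 90 of 5894 with Syn2, which was at 1.01 (SE 0.16), and reads of shared bases cannot be told apart.

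**Figure D4:**
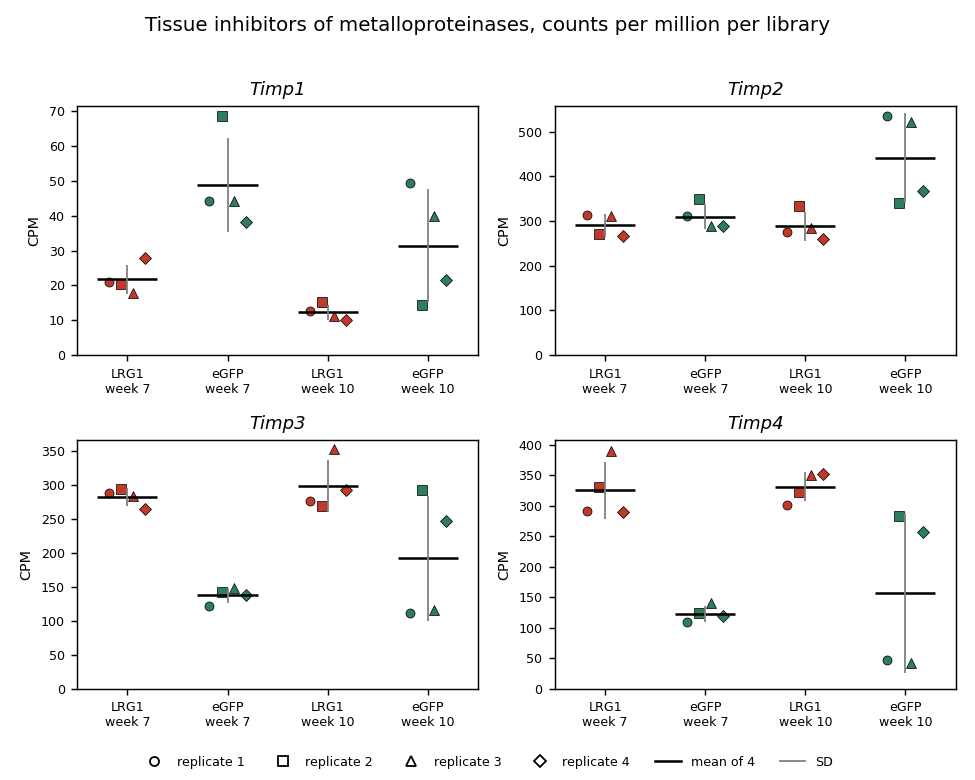
CPM per library, on axes that start at 0, for Timp1, Timp2, Timp3 and Timp4 in the LRG1 and eGFP groups of week 7 and week 10; each symbol is 1 mouse, its shape gives the replicate number, the black line is the mean and the grey bar the SD of 4. At week 7 Timp1 is lower and Timp3 and Timp4 are higher in LRG1 mice without overlap, and at week 10 eGFP replicates 1 and 3 stand apart from replicates 2 and 4 for all 4 genes.

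Week 10 was then set against week 7 within each treatment. The mice of the 2 weeks were different animals. The paper states that the AAV work used several db/db cohorts. The cohort of each mouse is not given in the sources used here, so age and cohort cannot be told apart. In eGFP mice, 2 members were called higher at week 10 than at week 7, Mmp11 and Mmp9, beside 0.629% of all genes, and 0 were called lower, beside 1.51% of all genes. At an unadjusted p below 0.05 edgeR gave 6 lower, and DESeq2 called 6 members in all. In LRG1 mice, 0 members were called in either direction by edgeR and by DESeq2, beside 0.0048% of all genes higher and 0.0048% lower, with 6 lower and 1 higher at an unadjusted p below 0.05. The difference between the effect of LRG1 at week 10 and at week 7 was called by edgeR for 1 member, Mmp11, as lower. Of all genes, 0.0192% were called lower and 0.307% higher.

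Mmp11 (stromelysin 3, made mainly by fibroblasts and known to act on adipocytes in mice) was at 5.10, 7.94, 7.76 and 7.84 CPM in LRG1 mice of week 10, against 12.3, 8.93, 13.2 and 11.7 CPM in eGFP mice. At week 7 it was at 6.40, 10.1, 7.81 and 8.89 CPM in LRG1 mice, against 4.24, 5.06, 4.45 and 4.53 CPM in eGFP mice. So LRG1 mice were above eGFP mice at week 7 and below them at week 10, with no overlap at either week, while the LRG1 mice of both weeks overlapped. The log2 fold change was -0.69 at week 10 (SE 0.16, edgeR adjusted p = 0.0078) and 0.86 at week 7 (SE 0.16, adjusted p = 0.0011), and the difference between them was -1.54 (SE 0.23, adjusted p = 0.0027). The log2 fold change of Mmp11 at week 10 over week 7 was 1.33 in eGFP mice (SE 0.16, edgeR adjusted p = 2.4e-04), against -0.21 in LRG1 mice (SE 0.16, adjusted p = 0.82). The difference kept its call in all 25 alternatives in which it could be computed, with adjusted p-values up to 0.0091, and was -1.39 (adjusted p = 0.0038) without eGFP replicates 1 and 3. The fall at week 10 alone was less certain, at -0.53 (adjusted p = 0.12) without these libraries. Mmp11 shares 155 of 2778 exon bases with Chchd10 on the opposite strand, which was at -0.62 (SE 0.36) at week 10 and -0.05 (SE 0.36) at week 7.

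Mmp9, gelatinase B of neutrophils and macrophages, had a similar shape but a wider spread. It was at 6.43, 3.6, 3.5 and 2.63 CPM in LRG1 mice of week 10, against 8.36, 2.01, 13.3 and 5.41 CPM in eGFP mice. At week 7 it was at 3.82, 5.08, 3.28 and 3.05 CPM in LRG1 mice, against 1.22, 1.69, 1.12 and 1.79 CPM in eGFP mice. Unlike the other myeloid enzymes it was higher in LRG1 mice at week 7 without overlap, but was not called in the 16-library fit (log2 fold change 1.39, SE 0.42, edgeR adjusted p = 0.021). In the fit of the 8 libraries of that week its adjusted p was 2.1e-04. The log2 fold change at week 10 over week 7 in eGFP mice was 2.32 (SE 0.43, edgeR adjusted p = 0.0047) and 1.35 (adjusted p = 0.016) without replicates 1 and 3 of week 10. The difference of the effects was -2.23 (SE 0.59, edgeR adjusted p = 0.10), which did not pass. DESeq2 on the 16 libraries called this difference (-2.245, adjusted p = 0.0063).

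**Figure D5:**
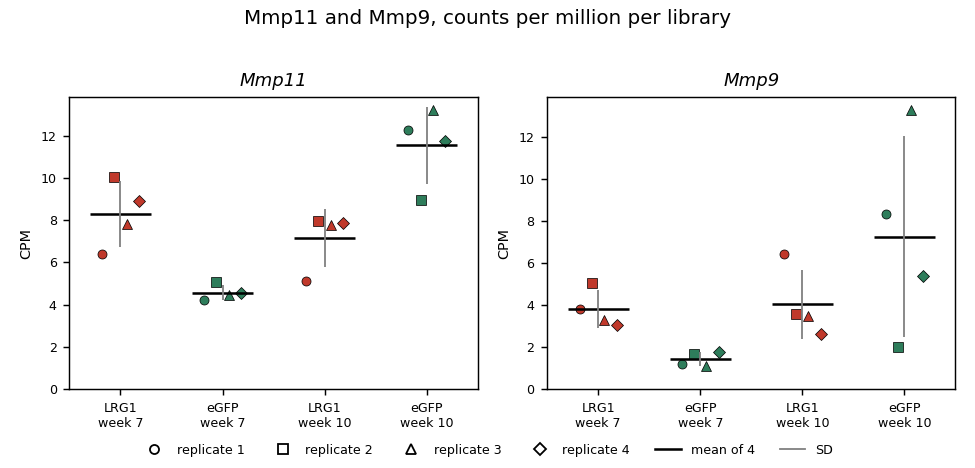
CPM per library, on axes that start at 0, for Mmp11 and Mmp9 in the LRG1 and eGFP groups of week 7 and week 10; each symbol is 1 mouse, its shape gives the replicate number, the black line is the mean and the grey bar the SD of 4. Mmp11 is higher in LRG1 mice at week 7 and lower in LRG1 mice at week 10, and the LRG1 groups of both weeks cover a similar range.

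Without eGFP replicates 1 and 3 of week 10, the other eGFP mice of that week differed from eGFP mice of week 7 in more members, 10 in all, beside 5.24% of all genes lower and 4.86% higher. Timp3 and Timp4 were then higher at week 10 than at week 7 in eGFP mice (log2 fold change 0.97, edgeR adjusted p = 4.9e-05, and 1.13, adjusted p = 4.1e-05). Adam17 (-0.75, adjusted p = 3.2e-05), Timp1 (-1.43, adjusted p = 8.8e-04), Mmp13 (-1.39, adjusted p = 0.0011), Mmp19 (-0.998, adjusted p = 0.0028) and Adam12 (-0.72, adjusted p = 8.4e-04) were lower, and Mmp11 was still higher. Adam23, a catalytically inactive adhesion protein, and the procollagen proteinase gene Adamts14 were lower too. The genes with a smaller difference between LRG1 and eGFP at week 10 thus include Timp3, Timp4 and Adam17, for which the effect of LRG1 differed between the weeks in this subset (-0.89, adjusted p = 0.0023; -1.11, adjusted p = 0.0012; and 0.57, adjusted p = 0.0026). Of all genes, 0.832% were called lower and 1.3% higher for this difference of effects. This subset holds only 2 eGFP mice of week 10 and was chosen after their values were seen.

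Genes of the same system outside the 5 families were read from lists. Of 11 tested activators and plasminogen genes, 3 were called higher and 1 lower at week 7, beside 7.37% and 10.7% of all genes. Plaur, the receptor that holds urokinase at the cell surface of leukocytes, was at -1.14 (SE 0.30, edgeR adjusted p = 0.0092). For Serpine2, an inhibitor of plasminogen activators, the value was 0.62 (SE 0.13, adjusted p = 0.0027), for Pcsk6, a proprotein convertase, 1.05 (adjusted p = 0.0056, SE 0.25), and for Bsg, or basigin, an inducer of MMPs, 0.32 (adjusted p = 0.0040, SE 0.07). Of 8 other matrix metalloproteinases and their helpers, Mme (neprilysin) at 0.60 (adjusted p = 3.3e-04, SE 0.10) and Tll1 (a procollagen C-proteinase) at 1.31 (SE 0.27, adjusted p = 0.0018) were called at week 7, and Mme again at week 10 (0.63, SE 0.10, adjusted p = 0.0014; 0.51 and adjusted p = 0.013 without eGFP replicates 1 and 3). Of 11 other inhibitors and receptors, 1 was called, Mrc2, the receptor that takes up collagen fragments, at 1.36 at week 10 (SE 0.22, adjusted p = 0.0015; 1.14 and adjusted p = 0.016 without eGFP replicates 1 and 3). The calls at week 10 stand beside 3.66% of all genes called higher and 5.24% called lower. The median of the list of inhibitors and receptors was 0.37 at week 7, beside 0.01 over all genes.

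Of 23 tested substrates, which ADAM and ADAMTS enzymes shed or cut, 8 were called lower and 2 higher at week 7, and 6 lower at week 10, beside 10.7% of all genes lower and 7.37% higher at week 7 and 5.24% lower at week 10. Without eGFP replicates 1 and 3, 0 were called at week 10. Those lower at week 7 included Cxcl16, a membrane-bound chemokine shed by ADAM10, at -1.85 (SE 0.16, edgeR adjusted p = 7.1e-07), Tnf, the substrate of ADAM17, at -1.54 (SE 0.24, adjusted p = 2.3e-04), and Selplg, a ligand of selectins, at -1.48 (SE 0.23, adjusted p = 2.5e-04). Csf1r, the receptor of macrophage colony-stimulating factor, was at -0.73 (SE 0.09, adjusted p = 5.0e-05), and it also stands in the macrophage list, as Trem2 does in that of lipid-associated macrophages. Eln (elastin, the substrate of MMP12) was higher, at 0.91 (SE 0.22, adjusted p = 0.0048), and so was Dcn (decorin), at 0.48 (SE 0.11, adjusted p = 0.0040). At week 10 Eln was at 0.83 (SE 0.22, adjusted p = 0.013; 0.41 and adjusted p = 0.13 without eGFP replicates 1 and 3). Transcript levels do not show cleavage, and no protein or enzyme activity was measured in these libraries.

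The remaining members gave little signal in the edgeR fit of 16 libraries. There the 20 tested members outside the rule for named genes had adjusted p-values of 0.0125 or more at both weeks. The smallest was for Mmp27, a stromelysin-like enzyme of the chromosome 9 cluster, at week 10 (-0.96). Without eGFP replicates 1 and 3 Mmp27 was at -0.48 (edgeR adjusted p = 0.32). DESeq2 on the 16 libraries called Mmp27 lower at week 10 (-0.97, adjusted p = 0.0013) and higher between weeks in eGFP mice (1.02, adjusted p = 0.0018). The edgeR fit of the 8 libraries of week 7 called Adamts3 higher (0.55, adjusted p = 0.0060). The 24 members that were not tested had at most 98 counts over all 16 libraries, and 17 of them are ADAM genes, of which 16 are known mainly from the male germ line and epididymis. Markers of testis germ cells summed to at most 0.321 CPM. Adam22 and Adam23, which lack protease activity, were expressed but alike, with Adam23 at 92.6 to 104 CPM in LRG1 mice and 99.4 to 109 CPM in eGFP mice at week 7 (log2 fold change -0.08, SE 0.20). Adamts2, which trims procollagen, was at 144 to 186 CPM in LRG1 mice and 108 to 146 CPM in eGFP mice at week 7 (0.39, SE 0.11, edgeR adjusted p = 0.014). The further abundant members Adam15, Adamts10, Adamts12, Adamts15 and Mmp23 had log2 fold changes between -0.17 and 0.18 at week 7 and did not pass; Adam15 shares 20.6% of its exon bases with the antisense gene 4731419I09Rik, and these reads cannot be told apart.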

How the data were processed

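RNA of whole epididymal white fat from 16 mice, 4 per group, was sequenced on a NovaSeq. The authors used Cutadapt for trimming and STAR for alignment (build mm10), and deposited raw read counts per gene from featureCounts. Tool versions, strand and the treatment of multi-mapping reads are not given in the sources used here. Symbols were matched by gene ID for 55394 of 55573 genes. Counts were fitted in R 4.3.3 with edgeR 4.0.16 (limma 3.58.1): TMM scaling (factors 0.847 to 1.10), filterByExpr by group, 1 quasi-likelihood fit of the 4 groups over 20822 genes, and Benjamini-Hochberg adjustment with calls below 0.01. The SE is the log2 fold change divided by the root of F. DESeq2 1.42.0 was an alternative. For changes relative to macrophage transcripts, the log of the geometric mean CPM of the markers (0.1 CPM added) was an offset. RPKM used the gene lengths of the deposited table. The fit was tested on simulated data. Named members were those called at either week and those with a group mean of at least 10 CPM, with Mmp12 and Mmp13 added because the study names them, and those called between weeks. Up to 4 genes per pathway list, with the smallest adjusted p, were named. The members and lists were chosen with earlier results of these data known. Each library is stated to be 1 mouse, so p-values measure the spread between mice, but cage is not given. Over 24 pairs of libraries with the same replicate number, the median correlation of deviations was -0.01 (-0.20 to 0.14), so the numbers did not pair the mice. Alternatives were another test, scaling, filter, threshold, replicate block, the 8 libraries compared alone, and leaving out libraries.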

Additional observations from a re-analysis of the deposited data

Results flagged for a closer look

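Mmp11 was the only member whose effect of LRG1 was called as different between the weeks in the edgeR fit of 16 libraries: the log2 fold change at week 10 minus that at week 7 was -1.54 (SE 0.23, edgeR adjusted p = 0.0027). DESeq2 called Mmp9 as well. In LRG1 mice of week 10, replicate 1 had 5.10 CPM of Mmp11, below the 7.76 to 7.94 CPM of the other 3.

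Among 160 groups of 4 libraries of the named members, 5 held a library whose gap to its nearest neighbour passed the 95% critical value of Dixon's ratio, and chance alone gives about 1 in 20. Besides Mmp11, these were Adamtsl2 in eGFP replicate 4 of week 10, at 8.23 CPM beside 4.19 to 4.87 CPM, and Adamtsl4 in LRG1 replicate 2 of week 10, at 12 CPM beside 10.7 to 10.9 CPM. Mmp19 in LRG1 replicate 2 of week 7 was at 80.4 CPM beside 72.4 to 73.0 CPM, and Mmp8 in eGFP replicate 2 of week 7 was at 1.61 CPM beside 0.635 to 0.791 CPM. The eGFP replicates 1 and 3 of week 10 were not picked up in this way, because they lie far from the others as a pair.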

How the results depend on the processing

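No named result changed direction past the threshold under any alternative, but the numbers of members called moved. For several settings no share of all genes is given, so those counts of members cannot be set against all genes. Among them are the 0.05 threshold, the filter, the replicate block and single libraries left out. With adjusted p below 0.05, 8 members were lower and 14 higher at week 7, 16 lower and 8 higher at week 10, and 8 differed between weeks in eGFP mice. With DESeq2, 8 were lower at week 7, 6 differed between weeks in eGFP mice and 2 differed in their effect between weeks (Mmp11 and Mmp9). Of all genes, DESeq2 called 14.4% lower at week 7. It called 2.96% lower and 2.22% higher between weeks in eGFP mice, and 0.218% lower and 1.27% higher in the effect. With only the 8 libraries compared, 9 were lower and 15 higher at week 7, 0 lower and 0 higher at week 10 and 1 between weeks in eGFP mice. With library totals alone, 8 were lower and 3 higher at week 7, and with no filter on low counts 7 were lower. Without eGFP replicates 1 and 3 of week 10, an alternative chosen after seeing the data, 9 were lower and 14 higher at week 7, 0 and 0 at week 10, 10 between weeks in eGFP mice and 4 in the effect; relative to macrophage markers 2 were lower at week 7 and 0 at week 10. For the effect without these 2 libraries, 0.832% of all genes were called lower and 1.3% higher. With lipid-associated macrophage markers as the scale, 9 were higher at week 7 and 0 lower at week 10. With the replicate block, 1 was lower at week 7, 3 were lower and 1 higher at week 10 and 1 differed between weeks in eGFP mice; the replicates share only a number.

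Leaving out 1 library at a time gave 0 to 7 lower and 4 to 12 higher at week 7, 0 to 16 lower and 1 to 9 higher at week 10, 1 to 6 between weeks in eGFP mice, 1 to 2 in the effect, and 26 to 40 higher relative to macrophage markers at week 10. The lower count at week 7 was 0 without eGFP replicate 1, LRG1 replicate 3 or LRG1 replicate 4 of that week. At week 10 it was 2 without eGFP replicate 1, 16 without eGFP replicate 2, 3 without eGFP replicate 3, and 2, 1 and 0 without LRG1 replicates 1, 3 and 4. The cause was not tested. Of 84 results on single members, 34 kept their side of the threshold in all alternatives. The calls among these were Adamts5, Adamts20 and Mmp11 at week 7, Mmp11 between weeks in eGFP mice and the Mmp11 difference. The rest of the 34 were not called in the main fit and stayed so. Members under about 1 CPM, such as Adamts18, Mmp25 and Mmp8 at week 7, are limited by depth.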
